A study of Mus musculus with 4 samples.

Results

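A small set of macrophages in the adventitial library of aged mouse aorta carried RNA of the serous cavity macrophage programme: the lipoxygenase Alox15, the serpin Serpinb2, the clotting factor gene F10, and Slpi, Prg4, Saa3, Fn1 and Cd5l. A cell was counted as a member when it had at least 200 detected genes and at most 10% mitochondrial counts, and passed a rule on unique molecular identifiers (UMIs, counted RNA molecules). The rule asked for at least 2 UMIs over Alox15, Serpinb2 and F10 and at least 1 over the macrophage genes Csf1r, Adgre1 and Cd5l. It allowed at most 1 UMI over the mesothelial genes Msln and Upk3b and none of the T cell genes Cd3d and Cd3e or the B cell gene Cd79a. The rule found 159 cells among the 8497 cells of the library, or 1.87% (95% exact Clopper-Pearson interval 1.59 to 2.18), out of 14831 cells in the whole series. The levels of the rule genes in these cells therefore describe how they were chosen and are no finding. The programme was carried mainly by the 110 members with a UMI of Alox15 or Serpinb2. The other 49 passed on F10 alone and had lower medians of Slpi, Prg4, Saa3, Fn1 and Cd5l UMIs per cell.

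The series held 4 droplet single-cell RNA libraries of C57BL/6 mouse aorta, with no allele or agent given for any group. Their titles and source labels gave aged descending aorta (2 libraries of 6 mice each), young aortic arch (1 library of 8 mice) and aged adventitia (1 library, number of mice not stated). Every library was described with the same protocol, in which adventitia was taken off, the opened vessel was treated with trypsin and the endothelium was scraped off in buffer with actinomycin D, which blocks transcription. That text describes scraped intima also for the adventitial library, so how its cells were freed is not given in the sources used here. Ages in weeks and the sexes were not given.

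Macrophages of the peritoneal, pleural and pericardial cavities float in serous fluid and depend on the transcription factor Gata6, which is known to be maintained there by retinoic acid. They are known for high Adgre1 (F4/80), Icam2, Alox15, Serpinb2 and Prg4, and for making clotting factors, among them factor V and factor X, that the liver otherwise supplies to plasma. They can settle on injured organ surfaces, and mesothelium, the sheet of cells that lines these cavities, covers part of the tissue around the aorta. Resident adventitial macrophages are otherwise known as a Lyve1 type with C-type lectins and scavenger receptors, and a Ccr2 type of monocyte origin with high major histocompatibility complex (MHC) class II RNA.

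The adventitial file held 9347 barcodes and 29370967 UMIs, where the labels gave a targeted recovery of 5000 cells per library. The median cell held 2551 UMIs, and the intimal libraries held 2030 to 2172 cells after the same filters, with medians of 4909.5 to 7037 UMIs. The adventitial library shared 27, 29 and 31 barcodes with the 3 intimal ones. Members held 1574 to 20823 UMIs, with a median of 5211, so they were deeper than the typical cell of their library. Since all members came from 1 library, no test between animals or conditions was possible. Levels are given as UMIs summed over a group of cells and scaled to 1000000 (CPM) with 95% exact Poisson intervals, and ratios with exact binomial counting intervals. These cover counting error only, and cells are not replicates.

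The 3 rule genes were not carried evenly. Of the 159 members, 70 had UMIs of all 3, 18 had Serpinb2 and F10, 11 had Alox15 and F10, 5 had Alox15 and Serpinb2, 3 had Alox15 alone and 3 had Serpinb2 alone. The other 49 passed through F10 alone. Among the macrophage genes, 115 members had a UMI of the receptor Csf1r, 123 of Adgre1 and 78 of Cd5l, and 2 passed through Cd5l alone. In all, 281 cells had at least 2 UMIs of the 3 rule genes, and 122 of them were left out: 60 lacked a macrophage UMI, 25 had a T cell UMI, 45 a B cell UMI and 38 more mesothelial UMIs than allowed, with 40 left out for more than 1 reason. At the edge of the rule, the 31 members with exactly 2 such UMIs held 51 F10, 6 Alox15 and 5 Serpinb2 UMIs. The 81 macrophages just outside it, with exactly 1, held 47 F10, 11 Alox15 and 23 Serpinb2 UMIs. Slpi stood at 871 CPM in the cells just inside and 484.8 CPM in those just outside, and the monocyte gene Ly6c2 at 1074 and 403.4 CPM.

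The members were split into 2 kinds, which the rule joined. Most of the 110 members with Alox15 or Serpinb2 carried the serosal genes together. Most of the 49 members with F10 only carried monocyte RNA and little of the rest. This split was chosen after the values had been seen and uses rule genes, so it is a description. Their F10 levels were close, 656.6 CPM (598 to 720) against 652.1 CPM (555 to 761), with a log2 ratio of 0.01 (-0.25 to 0.28). The F10-only members had to hold at least 2 F10 UMIs to pass, so this closeness was partly set by the rule and is no finding.

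Slpi, which encodes a secreted inhibitor of leukocyte proteases (GRCm38 chromosome 2, 164354070 to 164389095), had 0 to 953 UMIs in the 110 cells, with a median of 64. In the 49 F10-only cells it had 0 to 116, with a median of 2. Its summed level was 19337 CPM against 1553 CPM. The 110 cells were thus mostly high, and 84.5% of the F10-only Slpi UMIs lay in 10 cells. Saa3, an acute phase protein made by macrophages (chromosome 7, 46711998 to 46715700), had a median of 33 UMIs per cell and a highest value of 339 in the 110 cells, against a median of 1 and a highest of 71. Fn1, which encodes the matrix protein fibronectin (chromosome 1, 71585520 to 71653200), had medians of 31 and 2 UMIs, with the highest cells at 249 and 62.

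Prg4 encodes lubricin, a lubricating proteoglycan of joints and serous surfaces (chromosome 1, 150449412 to 150466165). It was found in 94 of the 110 cells, with a median of 9.5 UMIs, and in 3 of the 49. Cd5l, a scavenger protein secreted by tissue macrophages (chromosome 3, 87357881 to 87371073), was found in 76 of 110 and in 2 of 49 cells. Alox15, a lipoxygenase that oxidises arachidonic and linoleic acid (chromosome 11, 70344152 to 70352031), had a median of 4 UMIs and reached 31 in the 110 cells. Serpinb2, a serpin that inhibits plasminogen activators (chromosome 1, 107511423 to 107535478), had a median of 5 and reached 39. Both were at 0 in the other kind by construction.

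**Figure D1:**
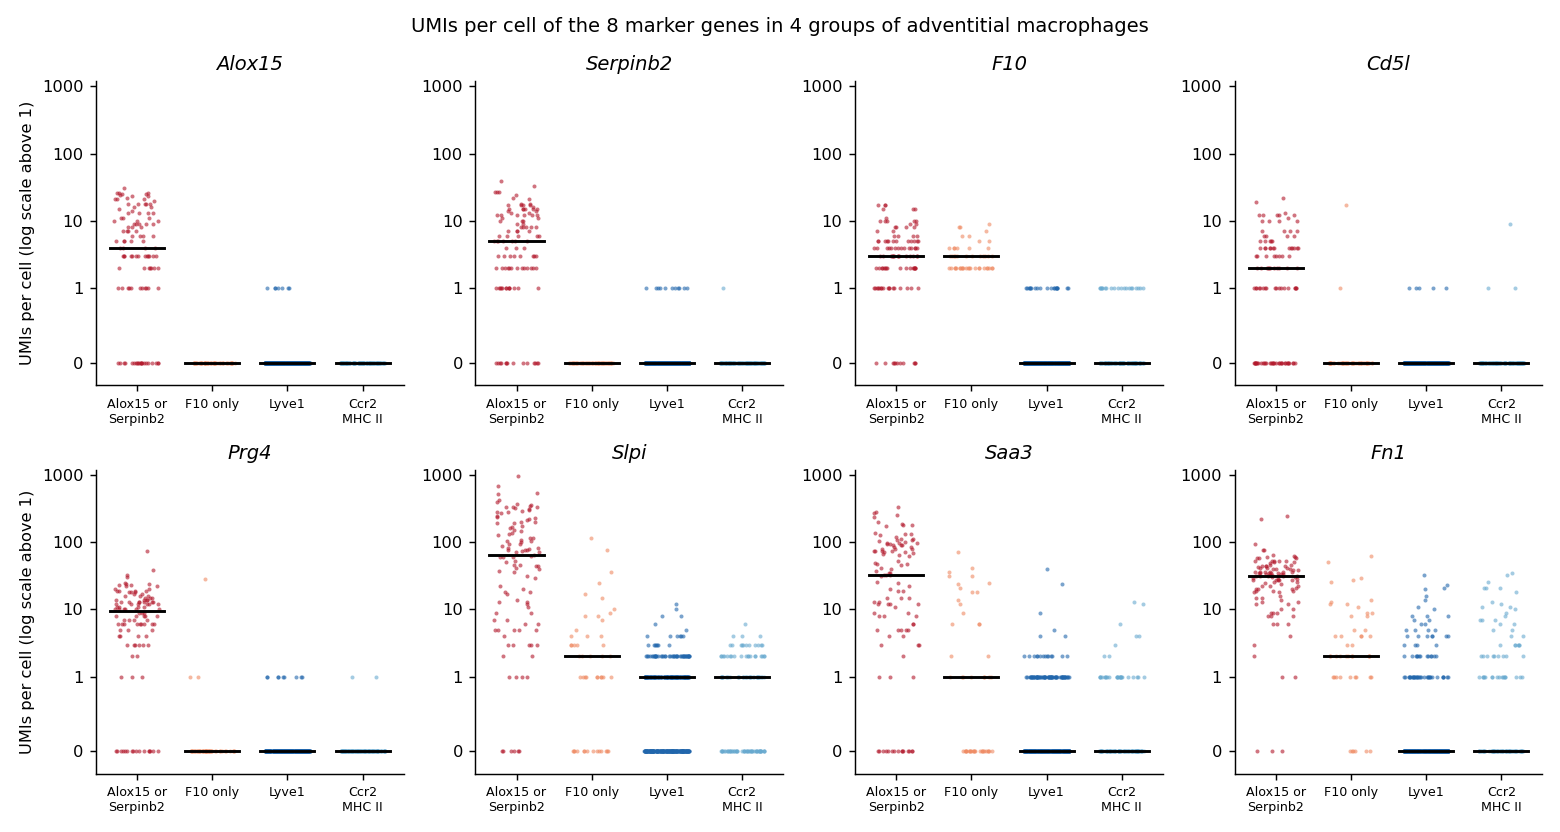
UMIs per cell (vertical axis, log scale above 1) of the 8 marker genes in members with Alox15 or Serpinb2 (110 cells), members with F10 only (49), Lyve1 macrophages (379) and Ccr2 MHC class II macrophages (116); each point is a cell and each bar the median. The first group sits highest for 7 genes, and F10 has a median of 3 UMIs in both kinds of member. Alox15, Serpinb2, F10 and Cd5l are rule genes, and F10-only members had to hold at least 2 F10 UMIs.

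Members were 1.87% of cells and held 69.2% of the library's Serpinb2 UMIs, 62.9% of Cd5l, 61.7% of F5, 61.0% of Saa3, 58.5% of F10, 56.5% of Prg4, 55.8% of Alox15 and 47.2% of Slpi. Serpinb2, Cd5l, F10 and Alox15 are rule genes, so their shares follow in part from how the cells were chosen. Cells that should lack these genes also held some of their UMIs, and the part of free RNA or doublets in that was not tested (9.11% of T cells had doublet scores among the highest). T cells were picked on Cd3d and Cd3e UMIs and had no UMI of Csf1r, Adgre1 or Cd5l. Cells with RNA of those macrophage genes were thus left out of this background. In 1196 T cells (median depth 2130 UMIs) a Slpi UMI was found in 44.6% (41.8 to 47.5), against 94.5% of the 110 members (median depth 5526), 50.9% of Lyve1 and 57.8% of Ccr2 macrophages. Slpi in those 2 comparison groups, at 227.8 and 251.8 CPM, was below the 330.5 CPM of T cells. The part of free RNA in these values was not tested. With every cell thinned to 1000 UMIs the Slpi shares were 83.6% in the 110 members, 42.9% in F10-only members and 21.7% in T cells. The thinned shares were 20.1% in Lyve1 and 23.3% in Ccr2 macrophages. Mesothelial cells, picked on at least 3 UMIs of Msln and Upk3b, had a Slpi UMI in 81.2%, and in 49.7% when thinned. Alox15 was found in 1.84% of T cells against 80.9% of the 110 members, a group chosen on Alox15 or Serpinb2. Cd5l was at 0 in T cells by construction.

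The bases before the start of 4 marker genes are shown because these genes were high together in the same cells and differ in whether they hold a GATA word near the start. Sequences are from RefSeq (GRCm38.p6), 5′ to 3′ on the gene's strand, and run from 250 to 31 bases before an annotated start. Capitals mark the word AGATAA or its reverse complement TTATCT, a word that GATA factors are known to bind. Other GATA words, such as TGATAA, were not counted.
Serpinb2, chr1:107511173-107511392, plus strand: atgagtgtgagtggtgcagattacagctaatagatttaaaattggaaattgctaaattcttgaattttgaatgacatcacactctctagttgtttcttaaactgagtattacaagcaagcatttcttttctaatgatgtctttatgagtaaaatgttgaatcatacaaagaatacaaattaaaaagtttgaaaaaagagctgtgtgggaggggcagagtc
F10, chr8:13037058-13037277, plus strand: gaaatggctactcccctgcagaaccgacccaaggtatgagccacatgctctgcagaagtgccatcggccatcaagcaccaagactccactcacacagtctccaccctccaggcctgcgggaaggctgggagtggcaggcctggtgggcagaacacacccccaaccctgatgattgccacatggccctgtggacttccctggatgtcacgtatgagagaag
Slpi, chr2:164356538-164356757, minus strand: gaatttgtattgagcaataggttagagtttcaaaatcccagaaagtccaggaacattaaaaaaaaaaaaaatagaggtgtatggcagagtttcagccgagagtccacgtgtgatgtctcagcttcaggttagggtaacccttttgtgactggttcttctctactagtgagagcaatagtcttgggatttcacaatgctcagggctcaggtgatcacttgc
Saa3, chr7:46715707-46715926, minus strand: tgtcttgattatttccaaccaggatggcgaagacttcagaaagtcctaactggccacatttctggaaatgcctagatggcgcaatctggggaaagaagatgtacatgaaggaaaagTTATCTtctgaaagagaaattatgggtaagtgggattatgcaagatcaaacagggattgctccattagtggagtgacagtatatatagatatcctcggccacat

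Of the 12 genes matched in the RefSeq table among 18 looked for, 2 held the word within 250 bases of a start. Saa3 held TTATCT with its first base 134 bases before the start, and a second annotated start of Serpinb2 held AGATAA at 41 bases. Over the whole table, 3281 of 32851 windows (9.99%) and 3090 of 27025 genes (11.4%) held it. A match in these letters is a description of the window, not a binding site, and no match says only that the word is not in it. Alox15, Prg4, Fn1, Icam2, Itga6 and Thbs1 were not matched.

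The F10-only members were mixed. In the clusters described below, 32 of the 49 lay in the cluster led by Mmp8 and Ly6c2. The cluster led by Ccl17 held 13, and the cluster that held most members had 4. Many of the F10-only members carried genes of classical monocytes. Ly6c2, the surface antigen of that monocyte type, had 0 to 28 UMIs per cell in the 49 cells with a median of 2, and was found in 29 of them against 9 of the 110. Its level was 1051 CPM against 37.35 CPM (log2 ratio -4.81 of the 110 over the 49, interval -5.46 to -4.23). Ccr2, the chemokine receptor that draws monocytes into tissue, was found in 40 of 49 and 12 of 110 cells, at 578.7 and 64.65 CPM. Plac8 stood at 2034 and 142.2 CPM, and Chil3, a chitinase-like protein of monocytes and alternatively activated macrophages, at 1333 and 367.8 CPM. Over the 7 genes of the monocyte marker list, F10-only members summed to 6590 CPM, the 110 cells to 1287 CPM, Lyve1 macrophages to 2003 CPM and Ccr2 macrophages to 2747 CPM.

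**Figure D2:**
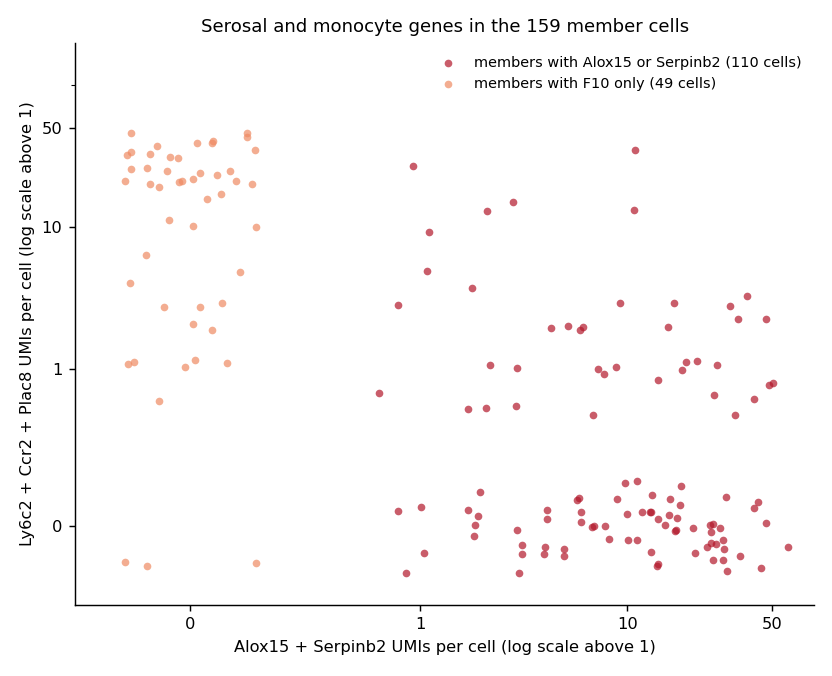
Each point is 1 of the 159 members, jittered by a fraction of a UMI: Alox15 plus Serpinb2 UMIs per cell (horizontal axis) against Ly6c2 plus Ccr2 plus Plac8 UMIs per cell (vertical axis), both on a log scale above 1. Most of the 49 F10-only cells lie at the upper left and most of the 110 others at the lower right, with few cells high on both axes.

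Over all genes with at least 10 UMIs in both kinds together, 6634 genes, 266 (4.01%) were at least 4-fold higher in the 110 cells and 111 (1.67%) at least 4-fold lower. Many of the higher genes had 1 or 2 UMIs in the F10-only cells, and with such groups also put at 3 counts 71 were higher and 111 lower. The 12 highest ratios outside the rule genes held Col1a2, Col1a1 and Col3a1, and Cxcl13, the chemokine that draws B cells, at 1859 against 61.13 CPM. Cxcl13 was uneven, with 70.9% of its UMIs in 10 of the 110 cells and a UMI in 45 of them. They also held Itga6, a laminin receptor subunit (307.5 against 16.3 CPM), the complement gene C4b (670.9 against 40.75 CPM), Ltbp1, which anchors latent TGF-beta in matrix (234.2 against 16.3 CPM), Prg4 and the endothelin receptor Ednrb (314.6 against 24.45 CPM). The cyclin Ccnd1 (83 UMIs against 2), the Wnt inhibitor Sfrp4 (52 against 1) and the complement receptor Vsig4 (41 against 1) rested on few UMIs in the F10-only cells. The lowest ratios were led by Ly6c2, Ms4a4c, Plac8, the neutrophil chemokine Cxcl3 (35.92 against 440.1 CPM), the collagenase Mmp8 (12.93 against 138.6 CPM) and the inhibitory lectin Clec12a (8.62 against 77.43 CPM). Col1a2 had 99 UMIs in the 110 cells and 1 in the 49 (log2 ratio 5.13, 2.61 to 10.44). Col3a1 had 162 UMIs in the 110 cells and 0 in the 49, 19.0-fold higher against the floor of 3 counts over the group. Of these UMIs, 121 lay in the 31 members just inside the rule. A cluster led by collagen genes held 4 of the 110 cells, and the part of doublets in the collagen values was not tested.

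In the MHC class II list, 2 of 11 genes (H2-DMb1 and H2-DMb2) were at least 4-fold lower in the 110 cells than in the 49 and none was higher. Over all genes 1.67% were lower. H2-Aa stood at 874.9 against 2343 CPM and Cd74, the invariant chain, at 2829 against 7910 CPM, both under the 4-fold mark. In both kinds Cd74 was uneven, with 64% and 69.4% of its UMIs in 10 cells. The cytokine gene Il1b stood at 219.8 against 908.8 CPM, and its inhibitor Il1rn at 43.1 against 252.7 CPM. F13a1, a chain of the enzyme that cross-links fibrin, stood at 91.95 against 468.7 CPM. Csf1r was at 267.2 and 289.3 CPM in the 2 kinds, while Adgre1 was at 620.7 and 158.9 CPM.

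Clustering of all 889 macrophage-like cells of the library gave 8 clusters, and 1 of them held most members. Of the 100 cells in it, 95 were members, 91 of them with Alox15 or Serpinb2, and its leading genes were Alox15, Prg4, Selp, Serpinb2, F5, Slpi, Saa3 and Cd5l. A cluster of 116 cells led by Mmp8, Ly6c2, Ms4a4c, Plac8 and Chil3 held 35 members, 32 of them F10-only. A cluster of 124 cells led by Ccl17, Ear2 and Cxcl3 held 21 members, 13 of them F10-only. The remaining 8 members lay in clusters led by collagen genes (4), Cd209 lectin genes (3) and endothelial genes (1). The clusters were drawn from the same counts as the rule, so this placement describes the members and is no test of them.

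Members were then set against 379 Lyve1 macrophages of the same library. These had at most 1 UMI of the 3 rule genes, at least 1 of Csf1r and Adgre1 and at least 2 over Lyve1, Cd163 and F13a1, with a median depth of 3421 UMIs. The group was mixed, and a Lyve1 UMI was found in 229 of its cells (60.4%). The cluster led by Cd209 genes held 212 of them, a cluster led by Lilra5, Cpa3 and Tpsb2 held 87, and the Ly6c2 cluster held 23. Of 9218 genes with at least 10 UMIs over both groups, 214 (2.32%) were at least 4-fold higher in members and 264 (2.86%) at least 4-fold lower. With groups of 1 or 2 UMIs also put at 3 counts these were 204 and 167. A second set of 116 Ccr2 MHC class II macrophages had a Ccr2 UMI, at least 3 over H2-Aa, H2-Ab1, H2-Eb1 and Cd74 and at most 1 over the Lyve1 genes, with a median depth of 3743 UMIs. The Ccl17 cluster held 43 of them and the Ly6c2 cluster 36. Against the 116 Ccr2 macrophages, 216 of 7887 genes (2.74%) were at least 4-fold higher in members and 89 (1.13%) lower, or 102 and 89 with groups of 1 or 2 UMIs at 3 counts. Both comparisons use the same member cells, so their values are given side by side.

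Of the 18 lists, the serous cavity list had the highest share of genes at least 4-fold higher in members, in both comparisons. Of its 32 genes, 9 were rule or marker genes and were left out. Of the other 23, 16 were at least 4-fold higher than in Lyve1 macrophages and none lower (median log2 ratio 3.15, against -0.01 over all genes, of which 2.32% were higher), and 15 were higher than in Ccr2 macrophages and none lower (median 3.21, against -0.03 over all genes, of which 2.74% were higher). All 23 passed the UMI minimum in both comparisons. The members were chosen on genes of this programme, and the lists with earlier results of these data known. The rank of the serous cavity list is therefore a description and no test. Gata6, the transcription factor of cavity macrophages, had 34 UMIs in members, 32 of them in the 110 cells, with 2 UMIs in Lyve1 and 1 in Ccr2 macrophages. Its log2 ratio was 4.63 (2.67 to 7.74) over Lyve1 and 4.13 (1.55 to 9.47) over Ccr2 macrophages. A Gata6 UMI was found in 23 of the 110 cells (20.9%, 13.7 to 29.7) and in 0.669% of T cells, and thinned to 1000 UMIs in 4.55% and 0.334%. Mesothelial cells, defined by at least 3 UMIs of Msln and Upk3b, had it in 53.3% of 197 cells.

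Adhesion genes of that list had some of its highest ratios. Icam2, a ligand of leukocyte integrins, stood at 602 CPM (546 to 662) in the 110 cells, 69.28 (40.4 to 111) in the 49, 18.2 (11.8 to 26.9) in Lyve1 and 16.51 (7.13 to 32.5) in Ccr2 macrophages. T cells held 37.99 CPM. Selp, which encodes P-selectin, known from platelets and endothelium, stood at 245.7, 20.38, 3.64 and 2.06 CPM in the same order. A Selp UMI was found in 65 of 110 cells and 2 of 49. Itga6 had log2 ratios of 4.73 (3.90 to 5.70) and 5.81 (3.94 to 8.87) over Lyve1 and Ccr2 macrophages. Itgam, the CD11b integrin, was 2.63 (2.31 to 2.97) over Lyve1 macrophages and 1.77 (1.38 to 2.17) over Ccr2 macrophages, the latter under the 4-fold mark.

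The TGF-beta genes Tgfb2 and Ltbp1 were both higher. Tgfb2 had 72 UMIs in members, 1 in Lyve1 and 4 in Ccr2 macrophages (log2 ratios 6.72, 4.19 to 12.04, and 3.21, 1.79 to 5.13). Ltbp1 reached 4.93 (3.92 to 6.17) and 3.62 (2.54 to 4.96). Padi4, a peptidylarginine deiminase known from neutrophils, reached 5.00 (3.60 to 6.91) over Lyve1 macrophages, from 88 UMIs against 4. Garnl3 had 79 UMIs in members and 0 in Ccr2 macrophages, 13.6-fold higher against the floor of 3 counts. Naip1, with 10 UMIs in members and 0 in Lyve1 macrophages, was 4.87-fold higher against the same floor. The values of Garnl3 and Naip1 depend on the floor and are no lower bounds.

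For 4 serous cavity genes, Timd4, Vsig4, Ednrb and Cxcl13, members as a whole were at least 4-fold higher than Ccr2 but not Lyve1 macrophages. The difference between the 2 comparisons was not tested. Timd4, a phosphatidylserine receptor of long-lived resident macrophages, stood at 70.4 CPM in the 110 cells, 82.24 CPM in Lyve1 and 8.26 CPM in Ccr2 macrophages, and had 0 UMIs in the 49 F10-only cells. Vsig4, a complement receptor, stood at 58.9, 60.41 and 4.13 CPM. Ednrb stood at 314.6, 254 and 20.64 CPM, and Cxcl13 at 1859, 382.8 and 101.1 CPM. Over all 159 members Cxcl13 stood at 1390 CPM, under the 4-fold mark over Lyve1 macrophages, which the 110 cells alone passed. Rarb, a retinoic acid receptor, had 8 UMIs in members and 2 in each comparison group, with log2 ratios of 2.55 (0.22 to 5.82) and 1.04 (-1.28 to 4.32). In the retinoid list, 2 of 12 genes were at least 4-fold higher than in Lyve1 macrophages, Rarb and the transglutaminase Tgm2, and 0 of 9 over Ccr2 macrophages. Over all genes 2.32% and 2.74% were higher. Aldh1a2, which makes retinoic acid, stood at 26.56 CPM in members, 11.65 CPM in Lyve1 and 24.77 CPM in Ccr2 macrophages.

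Some clotting genes were higher in members and most were not. Outside the rule genes, 6 of 20 tested genes of the coagulation and fibrinolysis list were at least 4-fold higher than in Lyve1 macrophages (among them F3, F5, F7, Tgm2 and Thbs1) and none was lower (median log2 ratio 0.25), against 2.32% of all genes higher. Over Ccr2 macrophages 5 of 19 were higher (among them F3, F5, F7 and Thbs1) and none lower (median 0.80), against 2.74% of all genes higher. F5 encodes factor V, the cofactor of factor Xa in the complex that makes thrombin. It had 202 UMIs in the 110 cells (290.2 CPM, 252 to 333), 9 in the 49 (36.68 CPM, 16.8 to 69.6), 1 in Lyve1 and 4 in Ccr2 macrophages. Its UMIs were spread over 70 of the 110 cells, with a highest value of 8.

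F7 encodes factor VII, which binds tissue factor and activates factor X. It stood at 109.2 CPM (86.0 to 137) in the 110 cells, 32.6 (14.1 to 64.2) in the 49, 1.46 (0.176 to 5.26) in Lyve1 and 14.45 (5.81 to 29.8) in Ccr2 macrophages. F3, tissue factor itself, stood at 136.5, 44.83, 13.1 and 12.38 CPM. It was found in 38.2% of the 110 cells, 28.9% of mesothelial cells and 2.34% of T cells. With cells thinned as above, these shares were 11.8%, 6.6% and 0.836%. The part of mesothelial RNA in the F3 value of members was not tested. Outside the rule genes, RNA of tissue factor, factor VII and factor V was at least 4-fold higher in members than in both comparison groups. F10 encodes factor X; Lyve1 macrophages held 14.56 CPM of it and Ccr2 macrophages 41.28 CPM, both limited by the rule to at most 1 UMI per cell.

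Thbs1, which encodes the matrix protein thrombospondin, stood at 1069 CPM in the 110 cells, 497.2 in the 49, 39.3 in Lyve1 and 152.7 in Ccr2 macrophages. Plau, the urokinase activator, had 1 UMI in all members. Its receptor gene Plaur stood at 222 CPM in members, 62.59 in Lyve1 and 210.5 in Ccr2 macrophages, under the 4-fold mark in both comparisons. F13a1 was at 915.6 CPM in Lyve1 macrophages, a group chosen partly on it.

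**Figure D3:**
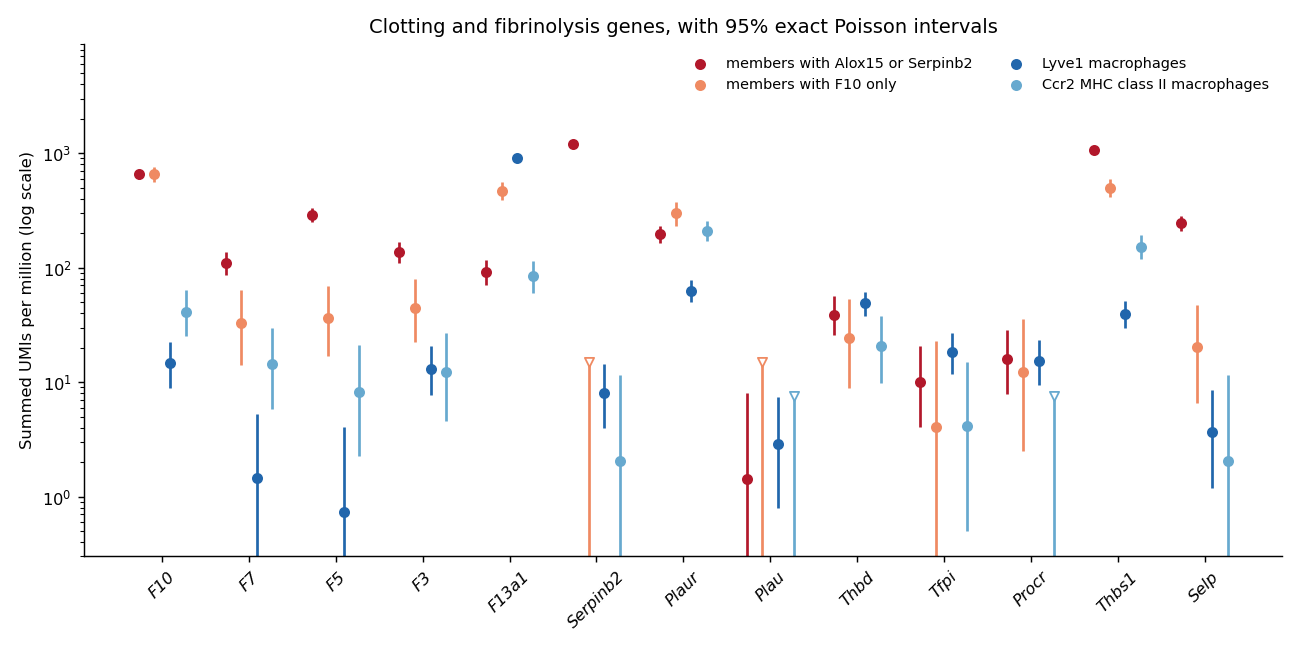
Summed level (CPM, log scale) of 13 clotting and fibrinolysis genes in the 4 groups of macrophages, with 95% exact Poisson intervals; open triangles mark the upper bound where a group had 0 UMIs. F10, F7, F5, F3, Thbs1 and Selp are highest in members with Alox15 or Serpinb2, and F13a1 is highest in Lyve1 macrophages. F10 is nearly as high in the F10-only members, which had to hold it under the rule.

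Several of these genes lie beside each other in the genome. F7 and F10 are neighbours on chromosome 8 in GRCm38 (13026034 to 13035809 and 13037308 to 13056676, both on the plus strand), 1498 bases apart. Selp (164115264 to 164150026) and F5 (164151838 to 164220277) are neighbours on chromosome 1, 1811 bases apart on the plus strand. No protein-coding gene lies between the genes of either pair in GENCODE M21.

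Lipid mediator genes differed by enzyme. Outside Alox15, 3 of 21 tested genes of the lipoxygenase and prostanoid list were at least 4-fold higher than in Lyve1 macrophages (Ptges, Ptgis and Ptgs1) and 3 lower (Hpgd, Hpgds and Pla2g2d). Over Ccr2 macrophages 3 of 19 were higher (Alox5, Ltc4s and Ptgis) and 1 lower (Hpgd). The shares of all genes higher and lower were 2.32% and 2.86% against Lyve1 macrophages and 2.74% and 1.13% against Ccr2 macrophages. Ptgis, the synthase of prostacyclin, which keeps platelets from clumping, stood at 298.8 CPM in the 110 cells, 24.45 in the 49, 15.28 in Lyve1 and 4.13 in Ccr2 macrophages. T cells held 20.08 CPM. Mesothelial cells held 1090 Ptgis UMIs, and the part of mesothelial RNA in the member value was not tested. Ptgs1, the constitutive cyclooxygenase, stood at 195.4, 32.6, 37.85 and 39.22 CPM. Hpgds, the haematopoietic prostaglandin D synthase, had 3 UMIs in members against 72 in Lyve1 macrophages (log2 ratio -4.04, -6.35 to -2.44).

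Of 13 tested genes of the Lyve1 resident list, 10 were at least 4-fold lower in members than in Lyve1 macrophages and none higher (median log2 ratio -3.67). Over all genes 2.86% were lower. The comparison group was chosen on Lyve1, Cd163 and F13a1, and against Ccr2 macrophages 2 of the 13 (Fcna and Ltc4s) were higher and 1 (Mrc1) lower (median 0.88). The mannose receptor Mrc1 stood at 36.12 against 533.5 CPM, the folate receptor Folr2 at 53.11 against 895.2, the chemokine Ccl8 at 173.1 against 2736 and the bridging molecule Gas6, which links dying cells to their receptors, at 19.12 against 358.1 CPM. The lectins Cd209b (-4.21), Cd209a (-4.14), Cd209d (-4.10) and Mgl2 (-4.08) and the surface protein Ms4a7 (-4.45) were also among the lowest log2 ratios. In T cells Ccl8 stood at 152.6 and Folr2 at 33.36 CPM, near the member values of these 2 genes.

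In the MHC class II list 5 of 13 genes were at least 4-fold lower than in Lyve1 macrophages (Cd74, Ciita, H2-Aa, H2-Ab1 and H2-Eb1) and none higher (median -0.81), against 2.86% of all genes lower. Over Ccr2 macrophages, where Cd74, H2-Aa, H2-Ab1 and H2-Eb1 were part of the choice, 2 of the other 9 were lower (Ciita and H2-DMb1). Over all genes 1.13% were lower there. H2-Aa stood at 1258 CPM in members, 6189 in Lyve1 and 7177 in Ccr2 macrophages, and at 663.2 CPM in T cells. Ciita, the regulator of class II genes, had 1 UMI in members, 26 in Lyve1 and 10 in Ccr2 macrophages.

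The small peritoneal macrophage list, which describes the monocyte-derived macrophages of the same cavities, went the other way from the serous cavity list. None of its 10 tested genes was at least 4-fold higher in members in either comparison, and 5 were lower than in Lyve1 and 6 lower than in Ccr2 macrophages (medians -1.79 and -2.07). Over all genes 2.86% and 1.13% were lower. The Ccr2 group was chosen on Ccr2 and class II genes. Folr2 and Mrc1, among the 5 lower genes, are also in the Lyve1 resident list. How far the choice of groups set these counts was not tested. Irf4 had 5 UMIs in members and 19 in Ccr2 macrophages, and Cd209a 10 and 95. The chemokine Ccl17, which draws T cells, had the lowest ratio of the genes named against Ccr2 macrophages, with 2 UMIs against 85 (log2 ratio -6.37, -9.44 to -4.47). Cd83 (-3.12), Aif1 (-2.96), Slamf9 (-2.62) and Rab3il1 (-2.30) were also among its 12 lowest.

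**Figure D4:**
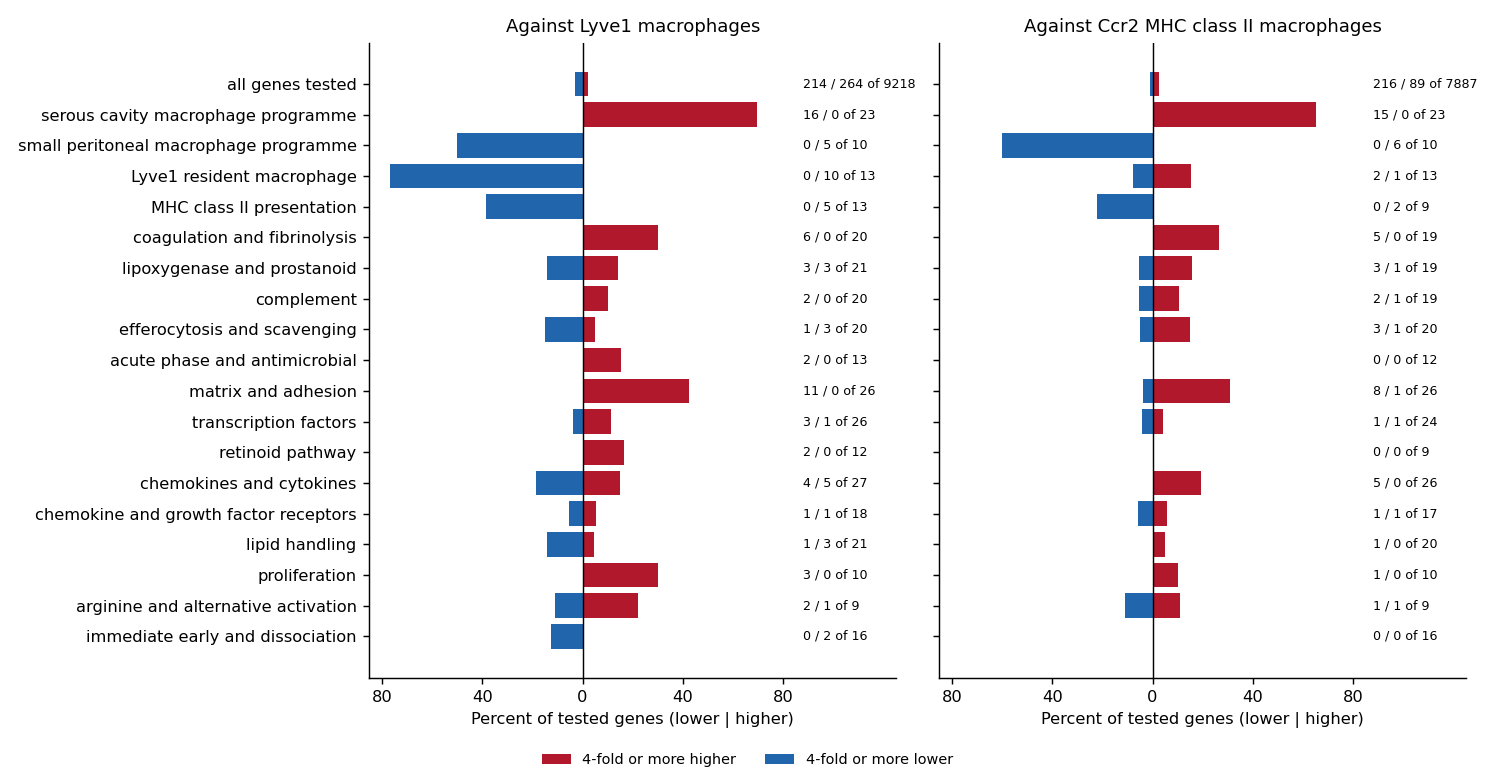
Percent of tested genes (horizontal axis) that were at least 4-fold higher (right, red) or lower (left, blue) in members than in Lyve1 macrophages (left panel) or Ccr2 MHC class II macrophages (right panel), for all genes and 18 gene lists; numbers give higher, lower and tested genes. The serous cavity list has 16 of 23 higher in the left panel and 15 of 23 in the right, against 2.32% and 2.74% of all genes.

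In the matrix and adhesion list, of 26 tested genes, 11 were at least 4-fold higher than in Lyve1 macrophages and none lower (median 1.68), against 2.32% of all genes higher. Against Ccr2 macrophages 8 were higher and 1 lower (median 0.89), where 2.74% of all genes were higher and 1.13% lower. Much of the matrix and adhesion count was shared with the serous cavity list: of the 19 genes outside it, 4 (Emilin2, Itga4, Itgb2 and Itgb7) were higher than in Lyve1 macrophages, and 3 (Ecm1, Emilin2 and Spp1) were higher and 1 (Itgax) lower than in Ccr2 macrophages. Emilin2, an elastic fibre glycoprotein, stood at 580 CPM in members, 64.05 in Lyve1 and 121.8 in Ccr2 macrophages. Ecm1 stood at 1027, 280.2 and 125.9 CPM. Itgb2, the common chain of leukocyte integrins, stood at 534.3, 103.4 and 165.1 CPM. Itgb7, another integrin chain, was at 126.4 CPM in members and 133.4 CPM in T cells.

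Cytokine genes were mixed. Over Lyve1 macrophages 4 of 27 were at least 4-fold higher (Il1a, Il6, Osm and Tgfb2) and 5 lower (Ccl12, Ccl7, Ccl8, Igf1 and Pdgfc). Over Ccr2 macrophages 5 of 26 were higher (Cxcl13, Il10, Il1a, Il6 and Tgfb2) and none lower. Of all genes, 2.32% were higher and 2.86% lower than in Lyve1 macrophages, and 2.74% were higher than in Ccr2 macrophages. Il6 stood at 435.5 CPM in members, 54.59 in Lyve1 and 105.3 in Ccr2 macrophages, and Il1a at 108.3, 5.82 and 26.83 CPM. Cxcl3 was among the genes highest over Lyve1 macrophages (141.3 against 1.46 CPM), and 108 of its 133 member UMIs lay in the 49 F10-only cells. Arg1, an arginase of alternatively activated macrophages, had 50 UMIs in members and 0 in both comparison groups. Against the floor of 3 counts it was 24.3-fold and 8.58-fold higher, values that depend on the floor.

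Among transcription factors, Gata6, Bhlhe40 and Rarb were at least 4-fold higher and Maf lower than in Lyve1 macrophages, of 26 tested, and over Ccr2 macrophages Gata6 was higher and Irf4 lower, of 24. In the complement list, Itgam and Itgb2 were higher than in Lyve1 macrophages, of 20, and C4b and Vsig4 higher and Itgax lower than in Ccr2 macrophages, of 19. For both lists, the shares of all genes higher and lower were 2.32% and 2.86% against Lyve1 macrophages and 2.74% and 1.13% against Ccr2 macrophages. The immediate early and dissociation list, which responds to cell isolation, had 0 of 16 genes higher in either comparison, with the heat shock genes Hspa1a and Hspa1b lower than in Lyve1 macrophages.

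Other genes were named by their ratio. Prtn3, a serine protease of neutrophil granules, stood at 405.8 CPM in members, 20.38 in Lyve1 and 16.51 in Ccr2 macrophages. Fabp7, a fatty acid binding protein known from glia, stood at 122.2, 6.55 and 6.19 CPM. C4b stood at 506.7, 369.7 and 26.83 CPM. Olr1, a receptor for oxidised lipoprotein, had 34 UMIs in members, 3 in Lyve1 and 1 in Ccr2 macrophages.

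RNA of mitotic genes was found in some members. At least 3 UMIs over 7 mitotic genes were found in 12 of 159 members, 11 of them among the 110, against 6 of 379 Lyve1 and 2 of 116 Ccr2 macrophages; members were deeper, and these counts were not thinned. In the proliferation list 3 of 10 genes were at least 4-fold higher than in Lyve1 macrophages (Ccnb2, Mki67 and Top2a) and 1 of 10 over Ccr2 macrophages (Tyms). Over all genes 2.32% and 2.74% were higher. Mki67 had 21 UMIs in members, of which 20 lay in the 110 cells. The 12 members with doublet scores among the highest of the library all lay in the 110 cells (10.9%), against 6.86% of Lyve1 and 9.48% of Ccr2 macrophages. How far deep, dividing or paired cells overlapped was not tested.

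Markers of other cells were counted over whole lists. Over the 12 mesothelial markers, 10 had a UMI and the sum was 56.3 CPM in members, against 597.6 CPM over the other cells of the library, with Wt1 and Bnc1 at 0. The rule capped Msln and Upk3b, so this sum was limited by it. B cell markers summed to 71.17 CPM and T cell markers to 12.75 CPM, with Cd79a, Cd3d and Cd3e at 0 by the rule. Natural killer cell markers summed to 13.81 CPM, endothelial markers to 48.86 CPM and smooth muscle markers to 81.79 CPM. Dendritic cell markers summed to 82.85 CPM with Flt3, Xcr1 and Clec9a at 0, eosinophil markers to 4.25 CPM with Epx, Ear1 and Ccr3 at 0, and mast cell markers to 59.48 CPM with Kit and Ms4a2 at 0. Neutrophil markers stood at 887 CPM against 2369 CPM in the other cells, and plasma cell markers at 507.7 against 4123 CPM. The B1-type B cell and platelet lists were higher in members than in the other cells, at 945.4 against 318 CPM and 2767 against 569.7 CPM. The first holds Itgam and Cd9, which macrophages also express and which are in the serous cavity list. The platelet list holds Pf4, and Lyve1 macrophages reached 4058 CPM on it; Gp1ba was at 0 in members. Fibroblast markers summed to 1152 CPM in the 110 cells, 358.6 in the 49, 857.4 in Lyve1 and 1414 in Ccr2 macrophages. Haemoglobin and other erythroid genes summed to 1375, 7816, 14240 and 11119 CPM, and to 59424 CPM over the other cells. Their part in the differences between groups was not tested. Values in T cells were given above for some genes only.

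In the rest of the series the same rule found few cells. It picked 4 of 2030 and 3 of 2132 cells of the descending intima and 1 of 2172 of the arch, or 0.197% (0.0537 to 0.504), 0.141% (0.029 to 0.411) and 0.046% (0.00117 to 0.256). Those 8 cells held 44866 UMIs, with 22 of F10, 43 of Ly6c2, 26 of Ccr2 and 68 of Fn1, and none of Alox15, Serpinb2, Prg4, Saa3 or Cd5l. All 8 thus passed on F10 alone, as the 49 adventitial cells did. The libraries differ in tissue, labelled age and depth, which cannot be told apart here.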

How the data were processed

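Counts are UMIs per gene and barcode as the authors deposited them, from the Chromium Single Cell 3′ v2 kit per the labels, and from Cell Ranger 2.1.2 on mm10 per the submitters' processing notes. Files listed 27998 genes, of which 27645 had a symbol, and rows with the same symbol were summed. Gene positions came from GENCODE M21 (GRCm38). The members and lists were chosen with earlier results of these data known. UMIs were summed over cells per group, and a gene counted as different at 4-fold or more with at least 10 UMIs over both groups. Named genes were the 12 highest and 12 lowest ratios among genes with at least 20 UMIs over both groups and 50 CPM in one of them, outside the membership rules, besides list members and markers. A group with 0 UMIs was set to a floor of 3 counts. Doublet scores came from Scrublet in scanpy 1.11.5 at 0.8% per 1000 barcodes. Its automatic threshold called 2 barcodes and had not worked, so the 647 highest scores were marked, 12 of them members, and kept except in an alternative. Macrophage-like cells were clustered from 2000 variable genes, 30 components and 15 neighbours with leidenalg 0.10.2 (resolution 0.5). Shares of cells were also computed with cells thinned to 1000 UMIs. Ratios were checked on simulated data with numpy 2.4.6, scipy 1.17.1 and pandas 2.3.3 in Python 3.11.15. Alternatives changed the rule's minimums, the mitochondrial limit, doublets, the cluster, thinning, the UMI minimum and the fold. No p-values were computed, since the members came from 1 library. Some results are not reported here.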

Additional observations from a re-analysis of the deposited data

Results flagged for a closer look

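Cells that met the rule were also counted in the intimal libraries, which the comparisons do not use. The aged descending intima 1 library held 4 such cells, above the 3 that a count of 0 allows, while the other descending library held 3 and the arch library 1. The 4 cells had no Alox15 UMI.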

How the results depend on the processing

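The share of members among cells, 1.87%, was 1.51% with at least 3 UMIs of the 3 rule genes, 2.82% with at least 1, 1.54% with at least 2 macrophage UMIs, 2.56% with at most 5% mitochondrial UMIs, 1.12% for members in the main cluster and 1.29% for members with Alox15 or Serpinb2, the last chosen after seeing the data. Genes at least 4-fold higher than in Lyve1 macrophages, 214, numbered 111 with thinned cells, 81 with at least 50 UMIs, 1282 with no filter on low counts and 818 at 2-fold. Lower genes, 264, numbered 91 with at least 50 UMIs, 1106 at 2-fold and 167 with groups of 1 or 2 UMIs also put at 3 counts, a setting added after seeing the data. Over Ccr2 macrophages, the 216 higher genes numbered 96 with thinned cells, 66 with at least 50 UMIs, 833 at 2-fold and 102 with groups of 1 or 2 UMIs at 3 counts. The 89 lower genes numbered 54 with thinned cells, 22 with at least 50 UMIs, 1181 with no filter, 610 at 2-fold, 248 in the main cluster and 151 with Alox15 or Serpinb2. Between the 2 kinds of member, with settings added after seeing the data, the 266 higher genes numbered 71 with groups of 1 or 2 UMIs at 3 counts and 56 with at least 50 UMIs, where the 111 lower genes numbered 28. The counts of higher genes thus rest in large part on genes with few UMIs. A larger UMI minimum and thinning leave fewer genes tested, and the other causes were not tested. All 24 genes named in each comparison kept their direction in every alternative. Against Lyve1 macrophages all 24 stayed past 4-fold except 1 with thinned cells. Against Ccr2 macrophages, 18 of 24 stayed past 4-fold with at least 1 rule UMI, 22 with thinned cells, 23 in the main cluster and 23 without the highest doublet scores, where the haemoglobin gene Hbb-bt had a log2 ratio of -0.64. No paired analysis was possible because members came from 1 library. Median depth of 5211 UMIs limits statements on genes with few UMIs, such as Gata6.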

Other observations

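Alox15 UMIs were also found in cells picked as mesothelial. In 197 mesothelial cells of the adventitial library it had 150 UMIs in 65 cells, up to 14 in a cell, while Serpinb2 and F10 had 8 UMIs each. Prg4 had 108 UMIs in 44 of these cells. The 33 mesothelial cells with at least 2 Alox15 UMIs held 0 Serpinb2, 1 F10 and 0 Cd5l UMIs, along with 216 of Msln, 469 of Upk3b, 20 of Csf1r and 2 of Adgre1. They also held macrophage RNA, with 93 Lyz2 UMIs in 29 cells and 27 C1qa UMIs in 18 cells, and 14.7% of all mesothelial cells had doublet scores among the highest. The part of doublets or free RNA in these Alox15 UMIs was not tested. In members with Alox15 or Serpinb2, 826 Alox15 UMIs stood beside 834 of Serpinb2 and 457 of F10. T cells held 22 Alox15 UMIs, never more than 1 in a cell, and B cells held 40.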
